A study of Mus musculus with 6 samples.

Results

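Interferon-stimulated genes were followed across the cell classes of the mouse soleus. Of 41 listed genes, 40 had a row among the 31053 genes of the count tables: 29 of 30 genes led by type I interferon and all 11 led by interferon gamma. Mx2 was not analysed here. The genes were chosen by symbol as known targets of the 2 interferon types, with earlier results of these data known.

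The series comprised 6 libraries of CD45+ DAPI- cells sorted from soleus muscle of male C57BL/6 mice, read by 10x single cell RNA sequencing. Young mice were 4 to 5 months old and old mice 20 to 22 months old. By the study's methods the young mice were supplied by the University of Utah and the old mice by the National Institute on Aging. Old against young therefore cannot be told apart from the source of the mice. Mice walked freely (control), underwent 14 days of hindlimb unloading (HU), or underwent HU and then 4 days of reloading (4-day reload). Each library pooled several animals: for control 10 mice when young and 20 when old, for HU 8 and 10, and for 4-day reload 10 of each age. There was 1 library per age and treatment, so the mice of a pool could not be told apart and old could not be tested against young within a single treatment. Both control libraries came from 1 sequencing run and the 4 HU and reload libraries from another, so control against HU or reload cannot be told apart from the run.

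Type I interferons (the alpha and beta interferons) are made by cells that sense foreign or misplaced nucleic acid. Their signal ends at the interferon-stimulated response element (ISRE), through which antiviral genes are switched on. Interferon gamma, made by T cells and NK cells, acts at gamma-activated sites (GAS) and through IRF1, and drives the GBP and IRG GTPases and the chemokines Cxcl9 and Cxcl10. Many of these genes answer to both, so the division of the list into type I-led and gamma-led members names the leading input only. In skeletal muscle these genes are known mainly from inflammatory muscle disease and from recruited leukocytes.

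Promoters are printed for 7 members on which the results below turned, to show what the promoters of both lists hold. They are the 160 bases before the start site, read 5′ to 3′ on the gene's strand, from RefSeq on GRCm38.p6. Capitals mark an ISRE core (GAAANNGAAA, also found as its reverse complement) or, in Irf1, a GAS core (TTCNNNGAA).
Ifit1 (chr19:34640729-34640888, + strand): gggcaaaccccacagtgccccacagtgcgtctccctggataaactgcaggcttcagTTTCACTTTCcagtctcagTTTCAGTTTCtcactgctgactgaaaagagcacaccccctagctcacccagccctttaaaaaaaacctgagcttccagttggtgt
Ifit3 (chr19:34583369-34583528, + strand): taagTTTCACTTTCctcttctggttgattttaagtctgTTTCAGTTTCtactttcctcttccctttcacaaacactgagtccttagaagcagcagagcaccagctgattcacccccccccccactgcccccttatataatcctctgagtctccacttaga
Isg15 (chr4:156200819-156200978, - strand): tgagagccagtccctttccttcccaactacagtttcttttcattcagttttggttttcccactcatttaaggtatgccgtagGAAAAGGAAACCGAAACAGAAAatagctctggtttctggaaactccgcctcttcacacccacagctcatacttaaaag
Rsad2 (chr12:26456453-26456612, - strand): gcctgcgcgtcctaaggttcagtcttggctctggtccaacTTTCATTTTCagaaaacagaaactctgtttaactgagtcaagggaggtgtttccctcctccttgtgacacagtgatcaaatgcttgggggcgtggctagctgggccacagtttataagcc
Gbp2 (chr3:142620503-142620662, + strand): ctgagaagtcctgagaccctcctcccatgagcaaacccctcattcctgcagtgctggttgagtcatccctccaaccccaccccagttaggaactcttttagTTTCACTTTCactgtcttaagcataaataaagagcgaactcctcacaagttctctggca
Irf1 (chr11:53769854-53770013, + strand): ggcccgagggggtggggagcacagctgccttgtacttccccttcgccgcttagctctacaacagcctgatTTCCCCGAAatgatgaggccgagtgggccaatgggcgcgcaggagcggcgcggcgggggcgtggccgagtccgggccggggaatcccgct
Cxcl9 (chr5:92328080-92328239, - strand): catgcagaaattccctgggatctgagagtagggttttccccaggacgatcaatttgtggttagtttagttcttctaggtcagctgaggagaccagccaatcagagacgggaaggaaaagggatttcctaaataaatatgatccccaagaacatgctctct

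Ifit1 and Ifit3 each held 2 ISRE cores, Isg15 held 3 overlapping ones, and Rsad2 and Gbp2 held 1 each. Cxcl9 held neither motif in this window. Over the table's full window, from 250 bases before to 50 bases after the start, an ISRE core was present in 3.44% of 32851 promoters and a GAS core in 8.30%, both strands searched. Promoters were matched for 34 of the 41 genes, and Mx1, Mx2, Oas2, Usp18, Rtp4, Zbp1 and Iigp1 had no entry. An ISRE core was found in 58.3% of the 24 matched type I-led genes and in 70% of the 10 matched gamma-led genes, so this core did not separate the lists. A GAS core was found in 25% and 40% of them. A match of letters is a description and not a measured site.

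The 6 libraries held 1675 to 3676 barcodes and 5782054 to 22749375 unique molecular identifiers (UMIs, counted transcript molecules) each. Of 15467 barcodes, 12224 passed the filters, and 9374 of these were placed in 1 of 10 classes by lineage markers that include no member. The other 23.3% met no gate or more than one. Barcodes with over 10% mitochondrial UMIs made up 4.12% to 33.3% of a library, with the largest shares in young HU (27.5%) and young reload. In all, 169 barcode sequences occurred in 2 or more libraries, 120 of them among kept cells. Levels are given as CPM, the UMIs of a gene scaled to a common total within its class and library, where at least 20 cells were present. Macrophages (4692 cells), T cells (1152), neutrophils (1007) and dendritic cells (451) reached that number in all 6 libraries. Monocytes (669) reached it in 5, B cells (328) in 4, NK cells (264) in both control libraries, endothelial cells (554) and fibroblasts (164) in both HU libraries, and mast cells (93) in 2. Neutrophils were the shallowest large class, with a median of 1410 UMIs per cell against 5892 in macrophages, and their sums ran from 60190 UMIs in young reload (48 cells) to 851867 in old control. The class's own markers made up 5 of the 10 leading genes in macrophages, monocytes, T cells, mast cells and fibroblasts, 6 in neutrophils and NK cells, 4 in B cells, 3 in dendritic cells and 2 in endothelial cells. Endothelial and fibroblast markers were present although the sort was for CD45.

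Of the 4 classes measured in every library, neutrophils had the most members that were higher than in the others. Each class was tested against the mean of the other 3 within libraries, by the edgeR quasi-likelihood test on summed UMIs with Benjamini-Hochberg adjustment over 7345 genes. Of 40 members, 37 passed the filter on low counts (Ifi44, Iigp1 and Gbp5 did not). In neutrophils 27 of the 37 were higher and 3 lower, where 28.3% of all genes were higher and 39.2% lower. Both lists shared in this: 22 of 28 type I-led members were higher with a median log2 difference of 2.14, and 5 of 9 gamma-led members with a median of 0.59, beside -0.41 for all genes. With scaling by total UMIs the median of all genes in neutrophils moved to -0.74 and the members split 24 higher and 5 lower, so the differences are relative to that shift. The shares of all genes called under that scaling are not given for neutrophils.

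The largest neutrophil differences were in effectors of the antiviral response. Ifit3b, of a family that binds viral RNA ends, was 4.38 ± 0.54 (SE) higher on the log2 scale, with an adjusted p of 4.64e-08 in edgeR. Reads of Ifit3b and Ifit3 are hard to tell apart, so the split between them is uncertain. Rtp4, a chaperone of receptors that also restrains antiviral sensing, was 4.36 ± 0.31 higher. Oas3, one of the sensors of double-stranded RNA that activate RNase L, was 4.31 ± 0.25 higher. Its neutrophil level was 105 CPM (young) and 175 CPM (old) for control, 56.5 and 64.5 CPM for HU, and 166 and 233 CPM for reload. In macrophages the same gene stood between 4.00 and 34.3 CPM, below every neutrophil library.
Rsad2 (viperin, an enzyme that makes a chain-terminating nucleotide) was 4.09 ± 0.40 higher in neutrophils, and Isg20, an RNA exonuclease, was 4.06 ± 0.25 higher. Isg15, the ubiquitin-like modifier, averaged 732 ± 389 CPM (SD, n = 6) in neutrophils, 251 ± 157 in macrophages, 155 ± 95.9 in T cells and 104 ± 109 in dendritic cells. These SDs are over libraries that differ in age and treatment. Isg15 in neutrophils was 2.77 ± 0.28 higher on the log2 scale, and its lowest neutrophil library (438 CPM) was below the highest macrophage library (465 CPM).

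Not every member followed. Bst2 (tetherin, which holds budding virions at the cell surface) was lower in neutrophils by a log2 difference of -2.01 ± 0.25 (edgeR adjusted p of 5.96e-08), with 32.9 ± 18.5 CPM against 263 ± 137 in macrophages. Cxcl10, a chemokine for CXCR3-bearing T cells, was lower there by -1.19 ± 0.53 (edgeR adjusted p of 0.0486), a call lost in 7 of 13 alternative settings. Mx1, a dynamin-like GTPase, gave 2 UMIs in all neutrophils and was called lower (adjusted p of 0.0194). A shift of the gate moved that result, since in neutrophils named by clustering its log2 difference was 0.41.

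**Figure D1:**
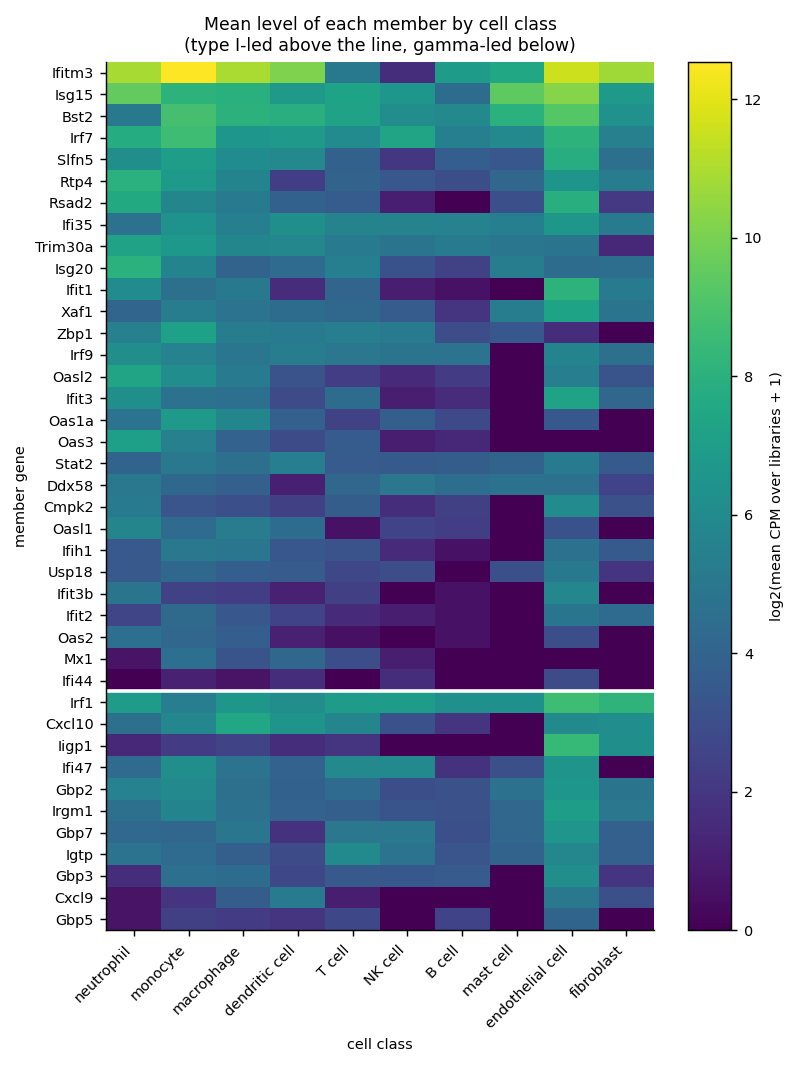
Heat map of the mean level of each member (rows, type I-led above the line and gamma-led below) in each cell class (columns). Colour gives log2 of the mean CPM over libraries plus 1, from dark (0) to bright, and the neutrophil and endothelial cell columns are brighter than the T cell column for Ifit1, Rsad2 and Isg15.

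Macrophages showed a mixed pattern. In them 12 of 37 members were higher and 6 lower, where 36.8% of all genes were higher and 16.0% lower, so the share of members that were higher was near the background. Ifitm3, which blocks viral fusion, was 2.12 ± 0.23 higher on the log2 scale, Cxcl10 2.10 ± 0.34 and the GTPase Gbp3 1.90 ± 0.27. Cxcl10 in macrophages lay between 112 and 340 CPM in the 6 libraries. Isg20 was lower by -2.09 ± 0.27, the mitochondrial nucleotide kinase Cmpk2 by -1.01 ± 0.31 (edgeR adjusted p of 0.00796) and the GTPase Igtp by -0.89 ± 0.25 (adjusted p of 0.00356).

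Dendritic cells were lower for most members that differed. Here 18 of 37 were lower and 6 higher, where 20.4% of all genes were lower and 30.4% higher. The cytosolic RNA sensor Ddx58 (RIG-I) was lower by -3.39 ± 0.39, Rtp4 by -3.25 ± 0.47 and Gbp7 by -3.19 ± 0.42. Ddx58 gave 14 UMIs in all dendritic cells and 529 in macrophages. The exceptions were Cxcl9, the second CXCR3 chemokine, at 4.62 ± 0.74 higher, Mx1 at 2.19 ± 0.45 and Stat2, a subunit of the ISRE-binding complex, at 1.38 ± 0.22. Cxcl9 in dendritic cells rested largely on old HU, where it reached 147 CPM against 0 to 30.8 CPM in the other 5 libraries. Mx1 was even, between 13.7 and 22.7 CPM in all 6.

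In T cells the medians of the lists lay on opposite sides of 0, a difference that was not tested. There 17 of 28 type I-led members were lower and 1 higher, with a median log2 difference of -1.39, while 3 of 9 gamma-led members were higher and 2 lower, with a median of 0.29. Over both lists 19 of 37 were lower and 4 higher, where 26.9% of all genes were lower and 33.8% higher. The higher members were the immunity-related GTPases Igtp (2.11 ± 0.26) and Ifi47 (1.28 ± 0.35, edgeR adjusted p of 0.00244), the guanylate-binding protein Gbp7 (1.03 ± 0.31, adjusted p of 0.00533) and Ddx58 (0.73 ± 0.30, adjusted p of 0.0388). Under a stricter gate the difference of Gbp7 turned to -0.11. Igtp averaged 63.1 ± 22.6 CPM in T cells, 26.3 ± 25.8 in neutrophils, 12.9 ± 5.14 in macrophages and 6.56 ± 5.00 in dendritic cells.
On the other side Ifitm3 was lower in T cells by -5.72 ± 0.38, and its 6.10 to 68.0 CPM lay far under the 893 CPM of the lowest macrophage library. Oasl1, a translational brake on Irf7, was lower by -5.35 ± 0.56 and gave 5 UMIs in all T cells. Cxcl9 gave 4 UMIs there and was lower by -3.75 ± 1.62 (edgeR adjusted p of 0.0472, or 0.058 with scaling by total UMIs). With that scaling the median of all T cell genes rose from 0.13 to 0.35 and 5 members were higher and 16 lower. The all-gene split in T cells went from 2481 higher and 1977 lower to 3203 and 1637.

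When the 6 classes with fewer libraries were added to the fit, which then tested 9242 genes and 38 members, endothelial cells stood beside neutrophils. In endothelial cells 28 of 38 members were higher and none lower, where 23.8% of all genes were higher, and in neutrophils 28 were higher and 1 lower. The shares of all genes in neutrophils in this fit are not given, so that count is not read against a background. Iigp1, an immunity-related GTPase of the vacuole surface, stood at 164 CPM in young HU and 518 CPM in old HU endothelial cells (edgeR adjusted p of 5.12e-13). No library of macrophages, dendritic cells, neutrophils or T cells exceeded 10.5 CPM. Rsad2 averaged 231 ± 106 CPM over the 2 endothelial libraries (adjusted p of 3.05e-09) and Ifit1 271 ± 243 CPM (adjusted p of 5.68e-08). Fold changes of these genes are not given, because at least 1 other class was at 0 UMIs. Isg15, detected in every class, was 2.95 ± 0.38 higher on the log2 scale. Erythroid markers in endothelial cells summed to 28951 CPM (young HU) and 33145 CPM (old HU), and 8 of 8 muscle fibre markers were detected there. Their part in the result was not tested.

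Monocytes were next, with 22 of 38 members higher and 1 lower, where 21.7% of all genes were higher and 8.15% lower. Ifitm3 was 4.26 ± 0.26 higher on the log2 scale and lay between 5528 and 6445 CPM in the 5 monocyte libraries. Mx1 averaged 23.3 ± 14.7 CPM there (edgeR adjusted p of 1.32e-07) and Oas1a 110 ± 41.2 CPM (adjusted p of 4.33e-11), and both had 0 UMIs in some other class. Reads of Oas1a can be shared with near-identical neighbours. The transcription factor Irf1 was the single lower member, by -1.46 ± 0.27.
B cells stood at the other end: 10 of 38 members were lower and none higher, where 8.40% of all genes were lower. Isg15 was lower there by -3.45 ± 0.53, with 24 UMIs in all. Rsad2 and Usp18, the protease that removes Isg15, gave 0 UMIs in B cells, which allows up to 3.64 CPM over the class.

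NK cells, fibroblasts and mast cells had few called members: 4, 5 and 2 of 38, where 17.7%, 25.6% and 9.73% of all genes were called. In NK cells Ifi47 was higher (36.1 and 90.5 CPM in young and old control, edgeR adjusted p of 0.0068), and Ifitm3, Slfn5 and Bst2 were lower. Ifitm3 gave 2 UMIs in NK cells of both control libraries. In fibroblasts Iigp1, Ifitm3 (2.40 ± 0.42) and Irf1 (1.16 ± 0.36) were higher, and Ifi47 (0 UMIs, up to 6.18 CPM) and Trim30a (1 UMI) were lower. Iigp1 in fibroblasts stood at 74.8 ± 74.0 CPM over 2 libraries. In mast cells Irf9 (0 UMIs, up to 24.9 CPM) and Ifitm3 (-2.39 ± 0.70, edgeR adjusted p of 0.0202) were lower. With scaling by total UMIs NK cells had 3 higher and 3 lower members and mast cells 1 of each, and the shares of all genes under that scaling are not given.

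Summed levels put the lists side by side within a class, with the 2 most abundant members, Ifitm3 and Bst2, left out of the type I-led sum so that they did not set it. The type I-led sum averaged 3156 ± 1987 CPM in endothelial cells (n = 2), 2702 ± 1451 in neutrophils (n = 6), 1882 ± 976 in monocytes (n = 5), 1019 ± 601 in macrophages, 684 ± 397 in dendritic cells, 599 ± 322 in T cells and 262 ± 77.3 in B cells (n = 4). Neighbours in that order overlapped over libraries, since neutrophils ran from 1332 to 4769 CPM and macrophages from 343 to 1897. The gamma-led sum followed another order, at 1384 ± 858 in endothelial cells, 527 ± 243 in fibroblasts, 433 ± 129 in macrophages, 372 ± 87.9 in T cells, 287 ± 144 in neutrophils and 129 ± 23.1 in B cells.
The log2 ratio of the gamma-led to the type I-led sum was therefore lowest in neutrophils (median -3.35, range -3.88 to -2.16) and near even in T cells (median -0.57, range -1.13 to 0). All 6 neutrophil libraries lay below all 6 T cell libraries. Fibroblasts were the only class above 0 in both of their libraries, at 0.32 (young HU) and 0.22 (old HU).
In dendritic cells the ratio moved with treatment, from 0.03 and 0.35 in young and old HU to -3.19 and -2.88 in young and old reload. The type I-led sum was 288 and 536 CPM in those HU libraries and 1307 and 1038 CPM in the reload libraries, and the gamma-led sum was 295 and 684 CPM against 143 and 141 CPM.

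**Figure D2:**
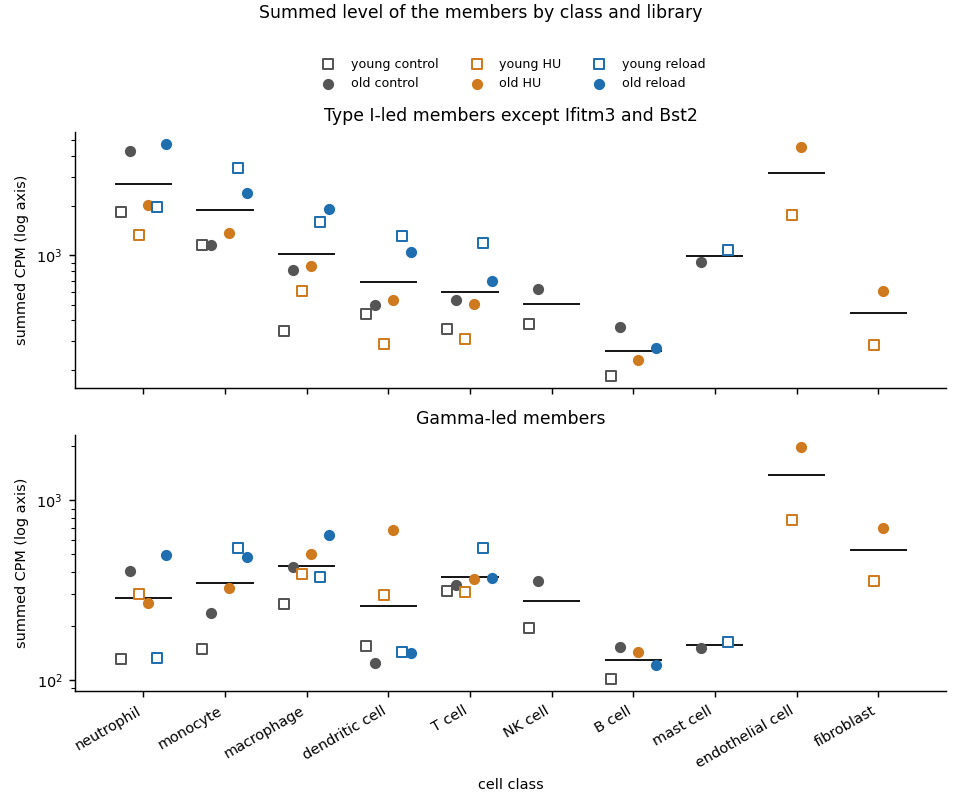
Summed CPM (vertical log axes) of the type I-led members without Ifitm3 and Bst2 (upper panel) and of the gamma-led members (lower panel) by cell class. Each point is a library, open squares young and filled circles old, coloured by treatment, and the line is the mean. Neutrophil points run from 1332 to 4769 CPM in the upper panel and from 130 to 493 CPM in the lower.

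Old against young was first tested over the 3 treatments together, in each class on its own, with treatment as a block. This fit takes the age difference as the same in the 3 treatments and leaves 2 residual degrees of freedom. The p-values measure only the spread between these pooled libraries. In neutrophils Ifit1 and Ifit3 were higher in old muscle, and no other member was called by edgeR in the age fit of a single class. There 2 of the 23 members that passed the filter were called higher, where 0.0756% of 2645 genes were, that is, no gene besides these 2. The filter on low counts ignores age, so a member can pass it through the libraries of a single age. Ifit1 and Ifit3 were low in the young libraries and passed through the old ones, so their direction was set in advance.
Ifit1, a reader of RNA caps, stood in neutrophils at 27.9 CPM (young) and 212 CPM (old) for control, at 0 and 69.5 CPM for HU, and at 0 and 77.6 CPM for reload. A count of 0 allows up to 24.2 CPM in young HU and 49.8 CPM in young reload, so the old libraries were above what the young ones allow. The fitted log2 difference was 3.36 ± 0.52, with an adjusted p of 0.0496.
Ifit3, its partner in the same complex, stood at 27.9 CPM (young) and 215 CPM (old) for control, 16.1 and 89.3 CPM for HU, and 0 and 101 CPM for reload. Its difference was 3.05 ± 0.47, also with an adjusted p of 0.0496. For both genes the 3 young libraries lay below the 3 old ones with no overlap, which goes with how they passed the filter and is not read as support.

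These calls sat at the threshold. Both were lost in 9 of 16 alternative settings, and no member was called without young control, without old control or without old reload. Without young HU 14 members were called (98 of 3454 genes), and without old HU also 14 (98 of 3444 genes). The adjusted p of Ifit1 was 0.052 with scaling by total UMIs and that of Ifit3 was 0.052 in DESeq2. At an unadjusted p under 0.05, 13 of the 23 members differed, where 7.71% of all genes did, and all 13 were higher in old. Members that passed the filter through old libraries alone could differ in that direction only, so the shared direction is not read as support.
Irf7, the factor that amplifies type I interferon production, was among them at 1.58 ± 0.28 (adjusted p of 0.112). Its neutrophil levels were 151 CPM (young) and 356 CPM (old) for control, 72.7 and 273 CPM for HU, and 99.7 and 338 CPM for reload. Gbp2 had a log2 difference of 3.22 ± 0.71 (adjusted p of 0.231), from 9.31 and 115 CPM in control, 16.1 and 24.8 in HU and 0 and 115 in reload. The young and old libraries did not overlap for Irf7, and for Gbp2 the HU pair was close. Over the 23 members the median was 1.03 and over all genes 0.00. The neutrophil markers themselves summed to 118458 to 225678 CPM. Monocyte markers in this class summed to 1762 to 3150 CPM, with Vcan at 0 and 1 of 8 higher in old in all 3 treatments.

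**Figure D3:**
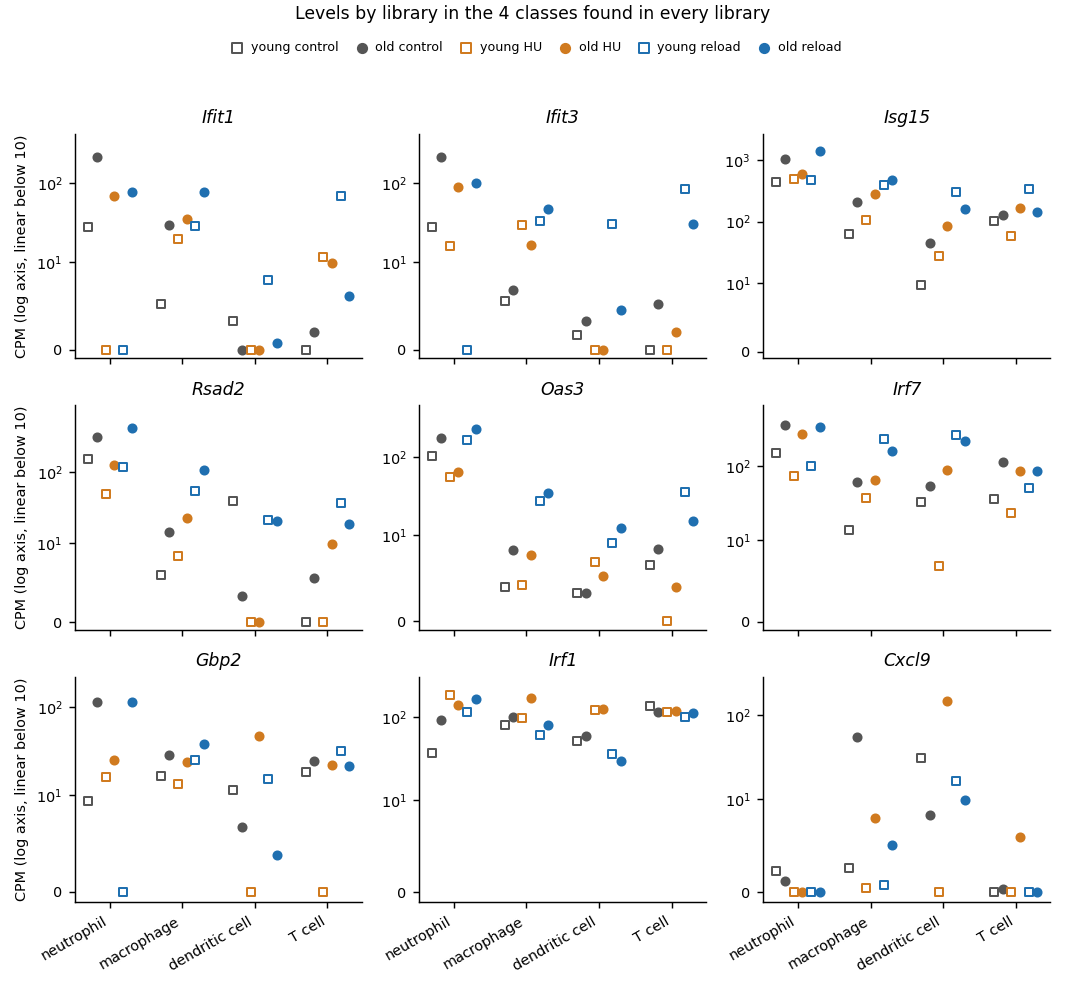
Level in CPM of 9 members (panels) in neutrophils, macrophages, dendritic cells and T cells, on an axis that is logarithmic above 10 CPM and linear below. Each point is 1 library, open squares young and filled circles old, coloured by treatment. The old neutrophil points of Ifit1 and Ifit3 lie above all young ones, and the reload points of Rsad2, Oas3 and Irf7 in macrophages lie above the HU points. Ifit1 and Ifit3 passed the filter of the neutrophil age fit through the old libraries.

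In macrophages no member passed the age test in edgeR (0 of 39, where 0.00989% of 10111 genes did). DESeq2 called 2 members, Cxcl9 and Ifit1, where it called 0.117% of all genes, and 16 members had an unadjusted p under 0.05, all higher in old, where 4.71% of all genes had one. Here too a member that passed the filter through old libraries alone could differ in that direction only. Cxcl9 had the largest log2 difference, 3.70 ± 0.40 (edgeR adjusted p of 0.134). It stood at 2.60 CPM (young) and 54.7 CPM (old) for control, 0.417 and 8.04 CPM for HU, and 0.813 and 5.11 CPM for reload. Ifit1 had a difference of 1.55 ± 0.26 (adjusted p of 0.627), from 5.20 and 29.3 CPM in control, 19.6 and 35.5 in HU and 28.3 and 77.0 in reload. Rsad2 had one of 1.17 ± 0.20 (adjusted p of 0.627). The old library was the higher of each pair for these 3 genes. They were named for their age differences, so this is not read as support. Cxcl9 was low in the young libraries and passed the filter through the old ones, so its direction was set in advance. Without young reload 6 members were called in this class (55 of 10220 genes), without old reload 5 (50 of 10199), and with both reload libraries left out 5 (47 of 9163). Markers of other cells moved in part with age in macrophages: 6 of 11 B cell markers and 3 of 11 neutrophil markers were higher in old in all 3 treatments, all of them detected. The B cell marker sums were 88.7 to 159 CPM in young and 121 to 212 CPM in old, and the neutrophil marker sums 86.4 to 154 and 101 to 231 CPM. The B cell sum was lower in old at HU (159 young, 127 old) and the neutrophil sum at reload (154 young, 101 old). Each was higher in old in the other treatments. Their part in the age differences was not tested.

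Dendritic cells and T cells showed no such calls. On simulated data, in which only better expressed genes were changed, the age fit was checked at a log2 change of 1. It recovered 71.7% of the changed genes that passed the filter in dendritic cells and 37.0% in T cells, so such changes can be missed. In dendritic cells 0 of 22 members were called by edgeR (0% of 5231 genes) and 0 by DESeq2 (0%), and 0 had an unadjusted p under 0.05, where 2.43% of genes had one. In T cells edgeR called 0 of 17 (0.0432% of 4631 genes) and DESeq2 0 (0.0216%), and 1 had an unadjusted p under 0.05, where 4.41% of genes did. That gene was Irf7, with a log2 difference of 1.43 ± 0.32 (adjusted p of 0.229) and levels of 36.0 CPM (young) and 114 CPM (old) for control, 22.9 and 87.0 CPM for HU, and 49.9 and 85.5 CPM for reload.

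Whether the age difference itself varied between the 4 classes was tested in 1 fit over classes and libraries. It did for 3 of 37 members, where 0.291% of 7909 genes were called: Ifit3 (edgeR adjusted p of 0.00132), Ifit1 (0.00278) and Cxcl9 (0.00666). Gbp2 followed at 0.0630. For Ifit3 the log2 age difference was 3.05 in neutrophils, 0.06 ± 0.27 in macrophages and -0.40 ± 0.74 in T cells, and for Cxcl9 it was 3.70 in macrophages and 0.02 ± 0.87 in dendritic cells. In the fits of single classes the direction of Ifit3 and Ifit1 in neutrophils and of Cxcl9 in macrophages was set in advance, as stated above, and is not read as support. DESeq2 called 0 members and 5 genes in all in this test. An unadjusted p under 0.05 was given to 12 members by edgeR, and to 380 of all 7909 genes, and to 4 members and 179 genes by DESeq2.

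Within each treatment 1 old library was set beside 1 young library, with no test. Intervals are exact 95% Poisson intervals of the UMI counts and cover counting error only. Members with at least 20 UMIs over the pair were counted, and a member measured through its higher library alone had to differ. In control macrophages 34 of 35 measured members were higher in old, where 55.6% of all genes were. The median log2 ratio of the members was 0.98 beside 0.06 for all genes, and the lists were alike (0.98 type I-led, 0.86 gamma-led). The largest ratios among members with at least 50 UMIs were those of Cxcl9 at 4.39 (3.56 to 5.35, 112 against 13 UMIs), Ifit1 at 2.49 (1.81 to 3.22, 60 against 26) and Ifi47 at 2.19 (1.40 to 3.00). The smallest were those of Cxcl10 at 0.22, Irf1 at 0.34 and Gbp3 at 0.34. Ifitm3, the member with most UMIs, was 1.03 (0.97 to 1.09) higher.
In HU macrophages 21 of 39 were above 0, with a median of 0.10 beside -0.14 for all genes. Rsad2 (1.43), Isg15 (1.40) and Slfn5 (1.34) were the largest, and Ifi47 (-1.27, -1.82 to -0.73), Ifit3 (-0.85) and Igtp (-0.54) the lowest, so the members spread to both sides. Ifi47 thus stood on opposite sides in control and HU.
In reload macrophages 33 of 40 were above 0, where 51.0% of all genes were, with a median of 0.35 beside 0.01 for all genes. The 11 gamma-led members were above 0 without exception, with a median of 0.62, and 22 of 29 type I-led members with one of 0.23. Cxcl9 at 2.65, Iigp1 at 1.69 and Ifit1 at 1.45 led, and Irf7 at -0.51 (-0.60 to -0.41, 1492 against 2554 UMIs), Bst2 at -0.37 and Oas1a at -0.16 were lowest. Among the abundant members Ifitm3 was at -0.03 and Isg15 at 0.27.

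**Figure D4:**
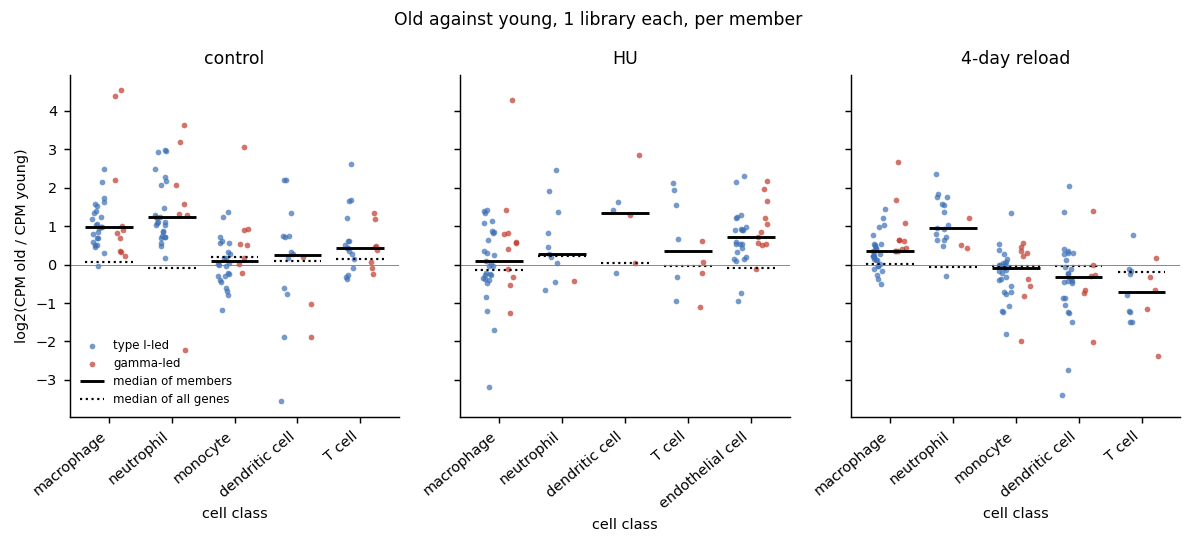
Log2 ratio of old to young CPM (vertical axis) of each measured member by cell class (horizontal axis), 1 panel per treatment, with type I-led and gamma-led members in different colours. Solid lines are the median of the members and dotted lines that of all genes, 1.23 and -0.09 in control neutrophils and -0.72 and -0.19 in reload T cells.

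In the other classes the direction depended on class and treatment. Control neutrophils had 32 of 33 measured members above 0 (median 1.23, all genes -0.09), and Gbp2 was highest among those with 50 UMIs at 3.63 (98 against 4 UMIs) and Trim30a lowest at 0.57. Ifi47 gave 54 UMIs in old control and 0 in young control neutrophils, a log2 ratio of at least 3.18 against the floor of 3 counts. HU neutrophils had 8 of 11 above 0 (median 0.27, all genes 0.22), with Irf7 at 1.91 and Ifitm3 at -0.67, and their median turned to -0.04 over the 32 members with at least 1 UMI. At that minimum a 0 was set to 3 counts while smaller counts were kept. Medians at that minimum, here and in the classes below, therefore depend on the floor and on depth, and no direction is read from them. Reload neutrophils had 18 of 19 above 0 (median 0.94, all genes -0.07), with Rsad2 at 1.84 and Trim30a at -0.30, and Ifit1 was at least 0.64 higher (23 against 0 UMIs). Of all genes 45.1% (control), 61.7% (HU) and 45.4% (reload) were above 0 in neutrophils, so the HU count was near its background.
HU endothelial cells had 30 of 33 above 0 (median 0.72, all genes -0.10). Isg15 there was 2.31 (2.14 to 2.49) higher in old, at 2050 against 412 CPM, and Ifi35 was at 0.09. Control T cells had 18 of 24 above 0 (median 0.43, all genes 0.15), with Rtp4 at 1.69 and Irf9 at -0.33, and HU T cells 6 of 10 (median 0.34, all genes -0.04), with Isg15 at 1.54. The HU T cell median turned to -0.66 over 31 members with at least 1 UMI (all genes -0.95) and to -0.36 by clusters. Reload T cells went the other way, with 2 of 14 above 0 (median -0.72, all genes -0.19) and Isg15 at -1.23. The share of all genes above 0 was 40.7% in HU endothelial cells. In T cells it was 61.1% (control), 47.2% (HU) and 36.7% (reload).
Control dendritic cells had 10 of 16 above 0 (median 0.25, all genes 0.09), near the 57.7% of all genes above 0, with Ifi35 at 2.19 and Slfn5 at -1.88. HU dendritic cells had 5 of 6 above 0 (median 1.34, all genes 0.03), but the median was -0.09 over the 30 members with at least 1 UMI and -0.06 over 22 by clusters, so no direction is read. Reload dendritic cells had 9 of 32 above 0 (median -0.34, all genes -0.04; 0.19 by clusters), with Cxcl10 at 1.40 and Ifit3 at -2.74. Control monocytes had 19 of 32 above 0 (median 0.10, all genes 0.20; -0.10 by clusters), with Cxcl10 at 3.05 on 105 against 3 UMIs and Isg20 at -0.80. Reload monocytes had 13 of 37 above 0 (median -0.09, all genes -0.04; 0.15 by clusters), with Ifit2 at 1.34 and Cxcl10 at -1.98. Cxcl10 in monocytes therefore lay on opposite sides at control and reload. All genes were above 0 at 52.2% (HU) and 44.5% (reload) in dendritic cells, and at 64.2% (control) and 46.3% (reload) in monocytes. The control monocyte members, at 59.4%, were thus below their background.
In control NK cells 10 of 12 measured members were above 0 (median 0.63, all genes 0.05) and Ifi47 was at 1.32. In control B cells 5 of 5 were above 0 (median 0.78, all genes 0.09), with Ifitm3 at 1.26, but over the 33 members with at least 1 UMI the median was -1.33 (all genes -0.48). That last median also depends on the floor and on the unequal depth of the libraries. In HU fibroblasts 6 of 6 were above 0 (median 0.69, all genes -0.08). The shares of all genes above 0 were 54.0% in NK cells, 55.7% in B cells and 44.1% in fibroblasts.

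Reload was compared with HU in the same fits, with age as a block. Both treatments shared a sequencing run, but their sample titles carry different leading numbers. Median UMIs per kept cell were 2548 and 2539 in young and old HU and 7883 and 5921 in young and old reload. Erythroid markers in macrophages summed to 3139 and 853 CPM in young and old HU and to 2.44 and 4.03 CPM in reload. The part of these in the differences was not tested. In macrophages 15 of 28 type I-led members were higher after 4 days of reload and 13 were not called, with a median log2 difference of 1.18 over the 28. Of 11 gamma-led members 0 were called by edgeR and 4 had an unadjusted p under 0.05, with a median of 0.46. In all 15 of 39 members were higher and none lower, where 5.56% of 10111 genes were higher. A test of the difference between the lists was not made.
Rsad2 rose by 2.43 ± 0.23 (edgeR adjusted p of 0.00977), from 8.35 and 22.4 CPM in young and old HU to 53.6 and 105 CPM in young and old reload. Oas3 rose by 2.41 ± 0.29 (adjusted p of 0.0117), from 4.17 and 7.70 to 27.4 and 34.3 CPM. Irf7 rose by 2.15 ± 0.54 (adjusted p of 0.0480), from 36.7 and 64.3 to 231 and 162 CPM, and it lost its call in 6 of 14 alternative settings. Both reload libraries lay above both HU libraries for these 3 genes.
Oasl1 rose by 2.12 ± 0.30, the nucleic acid sensor Zbp1 by 1.90 ± 0.32 and Oas1a by 1.88 ± 0.28. The other called members were Isg20, Oasl2, Usp18, Slfn5, Mx1, Bst2, Ifi35, Xaf1 and Trim30a, with rises between 1.79 (Isg20) and 0.98 (Trim30a). DESeq2 did not call Mx1, Usp18, Xaf1 or Trim30a. Isg15 had a difference of 1.38 with an adjusted p of 0.0526, and Ifit1 and Ifit3 had differences of 0.88 and 0.85 with adjusted p of 0.0991 and 0.104. Irf1, the gamma-led transcription factor, had a difference of -0.86 (adjusted p of 0.0574).
Monocyte markers within macrophages moved with this result, with sums of 309 and 776 CPM in young and old HU and 1553 and 1579 CPM in young and old reload, all 8 detected and 6 of 8 higher in both reload than in both HU libraries. Their part in the rise was not tested. Without young reload 6 members were called (421 of 10220 genes) and without young HU 19 (566 of 10848).

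In dendritic cells 2 gamma-led members, Irf1 and Cxcl10, fell. Irf1 fell by 2.15 ± 0.31 on the log2 scale (edgeR adjusted p of 0.0137), from 124 and 126 CPM in young and old HU to 36.1 and 29.6 CPM in young and old reload. Cxcl10 fell by 2.82 ± 0.50 (adjusted p of 0.0297), from 117 and 284 CPM to 19.0 and 50.1 CPM. HU and reload libraries did not overlap for either. They were 2 of the 22 members tested and 2 of the 5 gamma-led ones, where 1.15% of 5231 genes were lower. Called members numbered 10 in dendritic cells named by clustering and 4 to 8 without single libraries, and the shares of all genes called in those settings are not given. The HU dendritic cells were few, 23 young and 25 old. Irf7 had a difference of 2.08 ± 0.55 (adjusted p of 0.101), with 6.87 and 89.4 CPM in HU and 263 and 221 CPM in reload.
In dendritic cells scaling by total UMIs moved the median of all genes from 0.03 to 0.27 and the all-gene split from 16 higher and 60 lower to 45 and 52, and the members called stayed 2 lower.

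Neutrophils and T cells had no called members between reload and HU. In neutrophils edgeR called 0 of 23 (0% of 2645 genes) and DESeq2 0 (2.81% of the genes it adjusted), and 5 members had an unadjusted p under 0.05, where 11.0% of genes had one. In T cells edgeR called 0 of 17 (0.561% of 4631 genes) and DESeq2 0 (2.03%), and 6 had an unadjusted p under 0.05, where 15.8% of genes did. Ifit3 in T cells stood at 0 and 1.98 CPM in young and old HU and at 86.1 and 30.5 CPM in young and old reload (edgeR adjusted p of 0.117). The 0 UMIs of young HU allow up to 34.3 CPM, which is above the level in old reload.

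The number of type I-led members detected per cell varied within a class. Each cell was thinned to 2000 UMIs, shallower cells were left out, and a cell was counted where at least 4 of 27 type I-led members without Ifitm3 and Bst2 were detected. This class is a range and not a cell type. Shares carry exact 95% Clopper-Pearson intervals for counting error only. Of macrophages, 12.9% met this count (527 of 4070), with 314 cells at 3 members and 165 at exactly 4. Without thinning 39.7% did. In B cells, the class with the lowest levels, 0.463% did (1 of 216), or 2.31% without thinning, at a median depth of 2370.5 UMIs against 5892 in macrophages.
Of young control macrophages 8 of 532 met it. The share was 6.23% in old control, 4.51% and 6.43% in young and old HU, and 17.8% (15.6 to 20.1%) and 21.5% (19.2 to 24.1%) in young and old reload.
Neutrophils reached 17.5% in young control (10 of 57, 8.75 to 29.9%), 52.7% in old control (89 of 169, 44.9 to 60.4%) and 58.8% in old reload (20 of 34). These intervals count cells of 1 pooled library per age and do not test age. The cells compared were also unequal parts of their libraries: 57 of 222 young control and 169 of 268 old control neutrophils were deep enough. Only 281 of 1007 neutrophils were deep enough, and the other 3 libraries had too few such cells. For monocytes the young and old shares were 15.1% and 15.6% at control and 33.8% and 32.1% at reload. Endothelial cells reached 23.1% in young HU (34 of 147) and 46.7% in old HU (50 of 107), and T cells 0 to 11.5%.

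**Figure D5:**
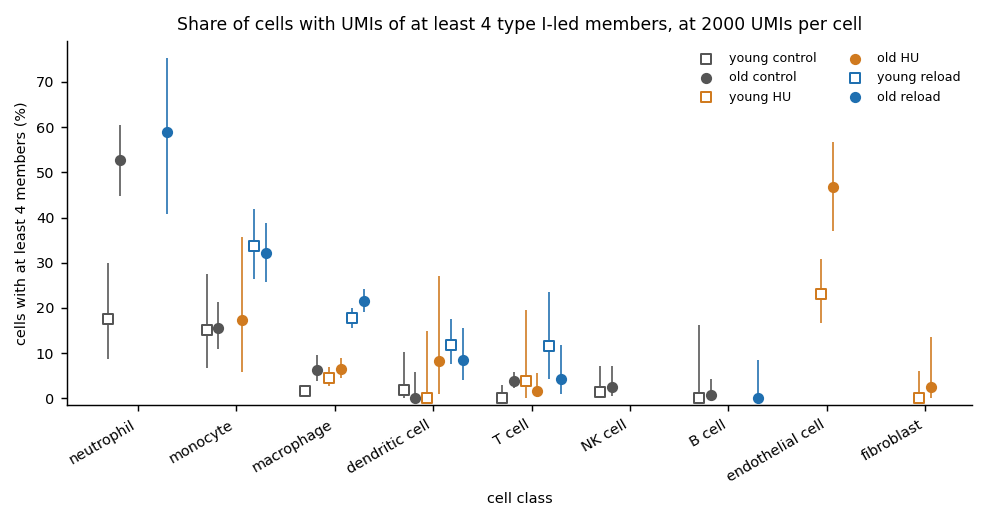
Percentage of cells with at least 4 of 27 type I-led members detected at 2000 UMIs per cell (vertical axis), by cell class. Each point is 1 library with at least 20 such cells, with its exact 95% binomial interval, open squares young and filled circles old. Old control neutrophils stand at 52.7% and old reload neutrophils at 58.8%, and the reload macrophages at 17.8% and 21.5%.

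Of the ligands, beta interferon (Ifnb1) was found mainly in macrophages, with 215 UMIs and 7.62 ± 4.51 CPM (n = 6), 4 UMIs in dendritic cells, 1 in monocytes and 0 in the other 7 classes. Ifna4 gave 1 UMI in all. Interferon gamma (Ifng) was found in T cells, at 69.4 ± 49.4 CPM (394 UMIs), and in NK cells, at 177 ± 123 CPM over 2 libraries, and gave 0 UMIs in neutrophils and dendritic cells. The receptor subunit Ifngr1 stood at 987 ± 218 CPM in T cells and 158 ± 43.5 CPM in neutrophils, and the type I receptor subunit Ifnar1 ranged from 24.8 CPM in endothelial cells to 66.8 CPM in NK cells. Of 18 tested genes of interferon production and signalling, 6 were higher and 5 lower in neutrophils, and the same numbers held for macrophages. They were 6 and 3 in dendritic cells and 5 and 6 in T cells. These counts are to be read against the shares of all genes given for each class above, from 28.3% to 36.8% higher and from 16.0% to 39.2% lower. Irf8, a factor that sets dendritic cell identity, was 4.45 ± 0.21 higher in dendritic cells and lower by -3.42 in neutrophils.
Of 34 other interferon-response genes, 19 were higher and 4 lower in macrophages (all genes 36.8% and 16.0%), 13 and 9 in neutrophils (28.3% and 39.2%), 11 and 9 in dendritic cells (30.4% and 20.4%), and 6 and 13 in T cells (33.8% and 26.9%). None of either list was called for age in any of the 4 classes by edgeR, and 12 of 37 other response genes had an unadjusted p under 0.05 for age in macrophages. After reload 13 of 37 other response genes rose and 1 fell in macrophages, where 5.56% of all genes rose, with the high-affinity IgG receptor Fcgr1 at 2.47 ± 0.27 and Ms4a4c at 4.02 ± 0.51. Of 21 signalling genes 3 rose. In dendritic cells the feedback inhibitors Socs3 (-3.51 ± 0.30, edgeR adjusted p of 0.00398) and Socs1 (-2.70, adjusted p of 0.0478) fell with Irf1 and Cxcl10, and the immunoproteasome subunit Psmb9 rose by 1.88 (adjusted p of 0.0478).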

How the data were processed

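The 6 gene by cell matrices held whole UMI counts, which the authors deposited unnormalized. Per the submitters' processing notes and the study's methods, reads were processed with Cell Ranger 3.1.0 on mm10. Barcodes with over 10% mitochondrial UMIs or under 200 genes were removed here, as were the highest scrublet doublet scores (340 marked, a share that grew with the library's barcodes). A cell joined a class with at least 3 of its markers detected and a marker share 1.5 times the next. UMIs were summed per class and library (at least 20 cells), and CPM were computed on those sums.

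Library sums were tested with edgeR 4.0.16 (R 4.3.3; quasi-likelihood, TMM scaling, filterByExpr) over all genes passing the filter, at a Benjamini-Hochberg adjusted p of 0.05: classes with library as a block, age with treatment, and reload against HU with age. The age fit left 2 residual degrees of freedom. DESeq2 1.42.0, total-UMI scaling, no low-count filter, a 20% mitochondrial limit, no doublet removal, a stricter gate (a share 2 times the next), clusters built without the members, thinning to 2000 UMIs and leaving out libraries were alternatives. The fit over all 10 classes was chosen after the cell counts were seen. Fits were tested on data simulated without treatment differences and with a set spread between libraries that was not estimated from these data. Only better expressed genes were changed, and recovery was counted among those that passed the filter. Recovery of members at low counts or with a larger spread can therefore be lower. At a log2 change of 1 the age fit recovered 94.0% of changed genes in macrophages, 71.7% in dendritic cells, 53.4% in neutrophils and 37.0% in T cells. At a change of 2 it recovered 92.7% or more in each class.

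Named were, per class, the 3 called members with the largest difference each way between classes, up to 6 called for age or reload, and, for old over young, the 3 largest each way with 50 UMIs and the 3 with most UMIs in macrophages (1 each way elsewhere). Other members are given as context. The members and lists were chosen with earlier results of these data known. UMI intervals are exact Poisson and cover counting error only, and 0 UMIs allow 3 counts. For old over young a 0 was set to those 3 counts and smaller counts were kept, so medians at a minimum of 1 UMI depend on this floor. Python 3.11.15, numpy 2.4.6, pandas 2.3.3, scipy 1.17.1, scanpy 1.11.5 and matplotlib 3.10.9 were used.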

Additional observations from a re-analysis of the deposited data

Results flagged for a closer look

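The age difference of 3 members differed between the 4 classes present in every library, by the edgeR F test of the interaction: Ifit3 (adjusted p of 0.00132), Ifit1 (0.00278) and Cxcl9 (0.00666). The log2 age difference of Ifit3 was 3.05 ± 0.47 in neutrophils and 0.06 ± 0.27 in macrophages, and that of Ifit1 was 3.36 ± 0.52 and 1.55 ± 0.26. That of Cxcl9 was 3.70 ± 0.40 in macrophages and 0.02 ± 0.87 in dendritic cells. Ifit3 and Ifit1 in neutrophils and Cxcl9 in macrophages passed the filter of those fits through old libraries. Their direction was therefore set in advance and is not read as support. Scaling by total UMIs also called 3 members, the stricter gate 2 and DESeq2 0. The cause was not tested.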

How the results depend on the processing

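Of the alternative values for single members, 405 kept direction and side of the threshold, 42 lost the call and 2 reversed: Gbp7 in T cells under the stricter gate (-0.11) and Mx1 in neutrophils by clusters (0.41). Of the counts and list medians, 244 stayed close, 58 moved and 1 reversed past the spread over the members. Medians within that spread also changed sign: HU dendritic cells -0.09 at 1 UMI, -0.21 at 100 UMIs (1 member) and -0.06 by clusters, HU T cells -0.66 at 1 UMI and -0.36 by clusters, HU neutrophils -0.04 at 1 UMI, -0.20 at 100 UMIs and -0.09 by clusters, and control monocytes -0.02 with TMM scaling, -0.10 by clusters and -0.10 thinned. Control B cells, outside that count, gave -1.33 at 1 UMI. The medians at 1 UMI depend on the floor set for a 0 and on depth, so their change of sign is not read as a change of direction. Age by class gave 0 called members in DESeq2 and 7 without a low-count filter. For age, neutrophil counts were 1 in DESeq2, 1 with total-UMI scaling, 0 by clusters, 0 without doublet removal, 0 under the stricter gate, 11 without a filter, 13 without both HU libraries, and 0 without both control or both reload libraries. Leaving out single libraries gave 0 to 14. Macrophage counts were 2 in DESeq2, 7 without a filter, 2 without HU, 5 without reload and 0 to 6 leaving out single libraries. T cells gave 1 without a filter and 0 to 1 leaving out libraries, and dendritic cells 0 to 1. Between classes, thinned cells gave 11 called members each in T cells, dendritic cells and macrophages. Leaving out libraries gave 15 to 24 in T cells, and clusters gave 5 in B cells. For reload, macrophages gave 28 without a filter and 6 to 19 leaving out libraries. Dendritic cells gave 1 thinned, 10 by clusters, 9 without a filter and 4 to 8 leaving out libraries. T cells gave 1 without a filter and 0 to 2, and neutrophils 0 to 1. Median old over young log2 ratios moved in reload monocytes (0.15 by clusters, -0.39 thinned), control dendritic cells (1.05 at 100 UMIs, 0.76 by clusters, 1.27 thinned), reload dendritic cells (0.19 by clusters, reversed) and control neutrophils (1.58 thinned). Shares of all genes called are not given beside the counts in this paragraph, and the causes were not tested.

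The dendritic cell fits and their HU ratio could not be run under the stricter gate, nor the neutrophil fits after thinning, for want of cells. A library left alone in its group was assumed to vary like the others. The age fit compared old with young within treatment and the reload fit blocked age. Beyond these blocks no pairing by replicate number existed, since each group had 1 library. Young reload neutrophils were the shallowest sums, where 0 UMIs allow up to 49.8 CPM.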

Other observations

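Among the 2850 cells that met no single gate, the type I-led sum without Ifitm3 and Bst2 was 442 and 1088 CPM in the young and old control libraries, 317 and 770 CPM in HU, and 2355 and 2270 CPM in reload. Their gamma-led sum was 262 and 315 CPM, 353 and 400 CPM, and 325 and 528 CPM.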
